A study of Mus musculus with 16 samples.

Results

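Translation factors are the proteins that load messenger RNA and initiator tRNA onto the ribosome and then move the ribosome along the message. Their genes were followed in murine MLL-AF9 leukemia cells (acute myeloid leukemia caused by a fusion gene), with and without the lactate exporter MCT4 and at high and low oxygen. The genes were taken by name: every row of the deposited table whose Ensembl identifier belongs to a protein-coding gene with a symbol starting with Eif and a digit, or with Eef1 or Eef2, pseudogenes left out. This gave 68 genes of 53801 rows. They include 44 genes grouped with initiation complexes, 4 of proteins that bind eIF4E, 4 of kinases of eIF2, 8 of elongation (6 of eEF1 and eEF2 subunits and 2 of eIF5A), 6 of enzymes that modify elongation factors, plus Eif4a3 and Eef1e1, which serve outside these steps. Eif1ad and Eif6 were counted with initiation by name, though Eif1ad encodes a protein of small-subunit maturation.

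Initiation starts when eIF2, bound to GTP and initiator tRNA, joins the small ribosomal subunit with eIF1, eIF1A, eIF3 and eIF5. The cap-binding complex eIF4F, made of eIF4E, the scaffold eIF4G and the helicase eIF4A, recruits the message, and eIF5B then joins the large subunit. Cells slow this process in several ways, of which a pair is best known: 4E-binding proteins, which mTORC1 holds in check by phosphorylation, sequester eIF4E, and stress kinases phosphorylate the alpha subunit of eIF2 so that eIF2B cannot recharge it. In elongation, eEF1A delivers aminoacyl-tRNA, the eEF1B complex recharges eEF1A, and eEF2 moves the ribosome on. Low oxygen is known to restrain both steps, largely through phosphorylation, which RNA levels do not measure.

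Both populations were cultures of the MLL-AF9 line in medium with serum, interleukin 3 and stem cell factor, and in both Cas9 had been switched on with 4-hydroxytamoxifen (4-OHT). The MCT4-KO cells carried a guide against MCT4, encoded by Slc16a3, and the control cells a guide with no target. The 4 groups of 4 libraries were MCT4-KO and control cells at 2% oxygen and MCT4-KO and control cells at 20% oxygen, 16 libraries in all. Whether the knockout was a clone or a pool is not given in the sources used here, nor are the guide positions. The labels give replicates a number but do not call them separate cultures, and p-values therefore reflect library-to-library spread that could be technical. Levels are CPM, reads scaled to library size and TMM factor, listed for replicates 1 to 4, and differences are log2 fold changes ± SE from edgeR's quasi-likelihood test with n = 4 libraries per group. The words rose and fell are used where the p-value adjusted over all 13774 tested genes was under 0.05.

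The labels held up at the targeted gene: Slc16a3 stood at 358 to 370 CPM in MCT4-KO and 789 to 844 CPM in control cells at 2% oxygen, and at 70.4 to 94.7 CPM in MCT4-KO and 184 to 235 CPM in control cells at 20%. Libraries held 21192179 to 28871459 estimated counts. All 8 markers of the labelled myeloid leukemia had counts, but their summed level moved with oxygen, mostly through the neutrophil elastase gene Elane. It ran from 4972 to 5246 CPM in MCT4-KO and 5117 to 5391 CPM in control libraries at 2% oxygen, against 2270 to 2410 CPM in MCT4-KO and 2117 to 2219 CPM in control libraries at 20%. The single markers went both ways at 2% against 20% oxygen: 3 rose and 2 fell in MCT4-KO, and 3 rose and 5 fell in control cells. Over all genes 37.7% rose and 38.7% fell in MCT4-KO, and 38.7% rose and 39.6% fell in control cells. Among markers of other cells, the T cell marker Cd3e was at 0 in every library, Pecam1 stood at 179 to 301 CPM, and Hba-a1, Epcam, Col1a1 and Alb reached at most 0.141, 1.14, 0.313 and 0.222 CPM. Which cells gave the Pecam1 counts was not tested, so they are not read as a sign of other cells. Mitochondrially encoded genes took 0.241 to 0.413% of the counts at 2% oxygen and 0.605 to 0.984% at 20%, and the 10 most abundant genes took 7.03 to 8.17% and 5.17 to 5.48%. The part of these shifts in the oxygen differences below was not tested. Between libraries of a group the chi-square per gene ran from 1.78 to 12.9. It was highest for replicate 4 of the controls at 2% oxygen (8.67 to 12.9, against 2.57 to 3.38 among the other 3), and pairs at 20% reached 7.71 in MCT4-KO and 9.22 in control cells.

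Of the 68 genes, 64 had enough counts to be tested. Eef1a2, the eEF1A form of muscle and neurons, and Eif4e1b, an eIF4E relative of oocytes, had 0 counts in all 16 libraries. Each such 0 allows up to 3 counts, on average 0.124 CPM. Eif4ebp3, the third 4E-binding protein, had 0.0863, 0.129, 0 and 0.0895 CPM in MCT4-KO and 0, 0.259, 0.236 and 0 CPM in control cells at 2% oxygen. At 20% it had 0, 0, 0 and 0.186 CPM in MCT4-KO and 0.0793, 0.115, 0 and 0 CPM in control cells, so its 16 values reached at most 0.259 CPM. Its exons overlap those of AC115631.1 by 67.3% of their length, and reads of Eif4ebp3 may have been counted to that gene. Eef1akmt3, a methyltransferase that acts on eEF1A, stayed between 0.0457 and 0.402 CPM.

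The levels spanned several orders of magnitude. Per kilobase of exon and averaged over the 16 libraries, Eef1a1 stood first at 7387 CPM per kb, then Eef2 at 2386, Eef1g at 553 and Eif5a at 483. The cap complex was uneven on the same per-length scale: the helicase gene Eif4a1 had 239 CPM per kb and its paralog Eif4a2 21.5, the scaffold gene Eif4g1 had 73.7 and the cap-binding gene Eif4e 33.3. The repressor gene Eif4ebp1, at 114 CPM per kb, stood above Eif4e, and Eif4ebp2 had 57.9 CPM per kb. Together the 68 genes took 4.19 ± 0.048% of all counts in MCT4-KO and 4.72 ± 0.072% in control cells at 2% oxygen, and 4.47 ± 0.023% in MCT4-KO and 4.54 ± 0.065% in control cells at 20% (SD, n = 4). Eef1a1 alone made up most of the gap at 2% oxygen, with 1.70 ± 0.027% in MCT4-KO and 2.18 ± 0.075% in control cells.

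Reads of some of these genes cannot be assigned with certainty, because the strand setting of the counting is not given and because copies exist. More than 10% of the 50-base windows also occurred in another annotated gene for 21 of the 68, among them Eef1a1 (60.6%), Eef1g (64.3%), Eif4a1 (65.3%), Eif1 (31.6%) and Eif2s3x (36.2%), mostly in pseudogenes. The pair Eif3j1 and Eif3j2 shared windows with each other (54.8% and 91.8%), so their values are not independent. Exons of Eif4ebp3, Eef1akmt4, Eif3d, Eif5b, Eif1ad, Eif4a2 and Eif2ak1 overlap those of a neighbour by 67.3, 31.7, 43.3, 16.8, 15.3, 13.3 and 11.6% of their length.

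Promoter sequences are shown for 6 genes that differ in the behaviour described below: Eef2 and Eif3f, higher at 2% oxygen, Eif5 and Eif1, lower at 2% oxygen, and Eif4g1 and Eif4a1, higher in the knockout at 2% oxygen. Each runs from 250 bases before to 30 bases after the transcription start given by RefSeq (GRCm38.p6), on the strand of the gene. Capitals mark CACGTG, the E-box that MYC and related factors recognise, or ACGTG on either strand. The shorter motif is the core of many hypoxia response elements and lies within the longer one. Each of the 6 promoters shown holds a marked match, whereas ACGTG occurred in 21 of the 52 members with a promoter. The 6 are thus not typical of the members in this respect.
Eef2, chr10:81176381-81176660, plus strand: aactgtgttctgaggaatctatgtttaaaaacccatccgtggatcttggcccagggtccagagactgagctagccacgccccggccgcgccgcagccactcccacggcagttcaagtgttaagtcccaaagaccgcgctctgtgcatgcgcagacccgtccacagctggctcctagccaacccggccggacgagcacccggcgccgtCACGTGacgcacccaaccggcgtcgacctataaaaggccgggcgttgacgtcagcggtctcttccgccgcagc
Eif3f, chr7:108934165-108934444, plus strand: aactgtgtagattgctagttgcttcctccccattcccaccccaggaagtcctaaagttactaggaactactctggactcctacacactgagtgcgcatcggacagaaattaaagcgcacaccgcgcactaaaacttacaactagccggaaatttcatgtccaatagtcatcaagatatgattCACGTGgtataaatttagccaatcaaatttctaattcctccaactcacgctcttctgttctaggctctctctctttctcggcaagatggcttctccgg
Eif5, chr12:111537851-111538130, plus strand: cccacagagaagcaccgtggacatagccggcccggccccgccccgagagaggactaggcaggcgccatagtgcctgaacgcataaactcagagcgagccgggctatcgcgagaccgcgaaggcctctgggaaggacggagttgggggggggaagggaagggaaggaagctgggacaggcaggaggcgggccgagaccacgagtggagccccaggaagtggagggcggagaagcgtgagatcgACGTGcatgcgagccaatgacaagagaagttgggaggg
Eif1, chr11:100319699-100319978, plus strand: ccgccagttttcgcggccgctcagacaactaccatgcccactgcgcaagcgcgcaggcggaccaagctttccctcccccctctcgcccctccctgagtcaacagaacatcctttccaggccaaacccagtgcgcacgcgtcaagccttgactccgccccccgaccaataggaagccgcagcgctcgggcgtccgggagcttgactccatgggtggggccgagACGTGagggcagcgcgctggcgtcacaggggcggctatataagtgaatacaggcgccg
Eif4g1, chr16:20672477-20672756, plus strand: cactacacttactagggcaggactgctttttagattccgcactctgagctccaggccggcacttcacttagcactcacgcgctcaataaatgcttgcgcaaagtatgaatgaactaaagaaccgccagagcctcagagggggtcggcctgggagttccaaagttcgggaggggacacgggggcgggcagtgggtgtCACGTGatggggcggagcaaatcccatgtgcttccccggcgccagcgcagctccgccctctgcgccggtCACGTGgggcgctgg
Eif4a1, chr11:69672394-69672673, minus strand: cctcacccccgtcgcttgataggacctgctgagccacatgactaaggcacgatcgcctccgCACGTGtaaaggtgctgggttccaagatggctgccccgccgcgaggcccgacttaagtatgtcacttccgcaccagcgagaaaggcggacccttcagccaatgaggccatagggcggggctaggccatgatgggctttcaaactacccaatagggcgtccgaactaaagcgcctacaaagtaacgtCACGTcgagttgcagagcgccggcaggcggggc
RefSeq promoters were matched for 52 of the 68 genes. In the whole window of 250 bases before to 50 after the start, read on both strands, CACGTG occurred in 13 of the 52 (25.0%), against 8.09% of 27025 genes. The shorter ACGTG, with matches inside the E-box included, occurred in 21 of the 52 (40.4%), against 21.8% of all genes. An ETS-type motif, CCGGAAG, occurred in 17 (32.7%), against 9.93%. The 13 genes with CACGTG moved in different directions at low oxygen: they include Eef2, Eif3f and Eif3k, which rose in both genotypes, and Eif3a, Eef2k and Eef1akmt4, which fell in both. The 27025 genes are all those with a RefSeq promoter, including genes too low to test in these cells, where 13774 were tested. Shares among expressed genes alone were not counted, and the differences in share were not tested. A match is a run of letters in this window and not a measured binding site.

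Low oxygen changed most of these genes, as it changed most genes of the cell, and it moved the subunits of single complexes apart. In MCT4-KO cells 31 of the 64 tested genes rose and 25 fell at 2% against 20% oxygen, where 76.4% of all tested genes were called (37.7% higher and 38.7% lower). In control cells 24 rose and 32 fell, where 78.3% of all genes were called (38.7% higher and 39.6% lower), so 56 of 64 members were called in each genotype. By log2 fold change the 4 largest falls were of Eif5, Eef1akmt4, Eif4g2 and Eif1 in MCT4-KO and of Eif5, Eif1a, Eif4g2 and Eef1akmt4 in control cells. The 4 largest rises were of Eif4ebp2, Eif3k, Eif5b and Eif3f in MCT4-KO and of Eif3f, Eif3k, Eif3h and Eef1a1 in control cells. The 21 genes that rose in both genotypes made up 67.7% of those that rose in MCT4-KO and 87.5% of those that rose in control cells. The 25 that fell in both were 100% of the falls in MCT4-KO and 78.1% of those in control cells. On the TMM scale Eif3b, Eif4a1, Eif4g1 and Eif5a went opposite ways, rising in MCT4-KO and falling in control cells. Scaled by library size alone, none of the 4 rose in MCT4-KO. Their changes there were then 0.0068 for Eif3b (not called), -0.084 for Eif4a1, -0.070 for Eif4g1 and -0.051 for Eif5a.

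Direction at low oxygen depended in part on the scaling. TMM set the median change of all genes to -0.014 in MCT4-KO and -0.017 in control cells. Scaling by library size alone moved these medians by -0.178 and -0.204, to -0.192 and -0.221, and gave 10 members higher and 33 lower in MCT4-KO (27.6% of all genes were higher and 50.4% lower), and 15 higher and 41 lower in control cells (28.1% of all higher and 51.7% lower). Under it 10 rises in MCT4-KO cells turned negative, namely those of Eif2b5, Eif2ak4, Eif3d, Eif2d, Eif3m, Eif4h, Eif4g1, Eif4a1, Eef1g and Eif5a. In control cells 5 rises did so, those of Eif2ak4, Eif4a2, Eif5b, Eif3c and Eif2s3x. Of the 56 calls in each genotype, 35 in MCT4-KO and 47 in control cells kept their call and direction. Since that scaling lowers every log2 fold change at low oxygen, falls could not turn under it. Changes are stated below relative to the TMM scale. On that scale the median over the 64 genes was 0.083 in MCT4-KO and -0.079 in control cells.

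**Figure D1:**
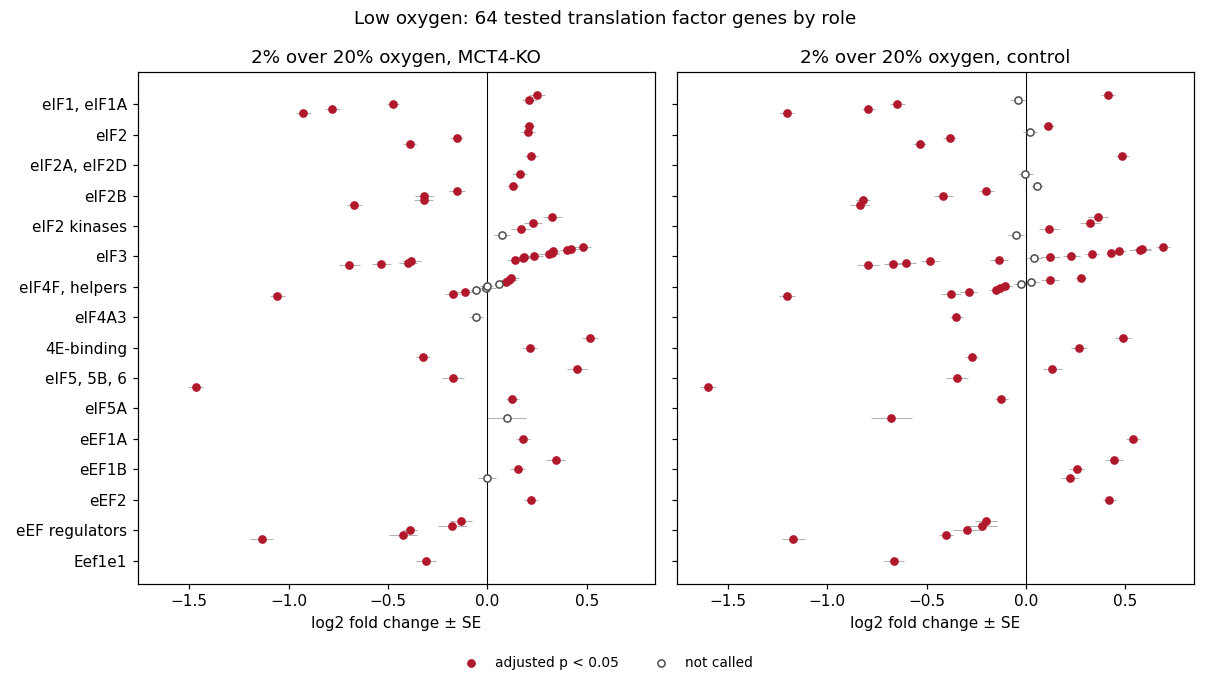
Log2 fold change ± SE (horizontal axis) at 2% over 20% oxygen of the 64 tested genes, grouped by role (rows), in MCT4-KO (left) and control cells (right), n = 4 libraries per group. Filled points had an adjusted p under 0.05. The eEF1 and eEF2 genes lie right of 0 in control cells and the eIF3 genes split into a rising and a falling set in both. Library-size scaling shifts all points left by about 0.178 and 0.204, which takes the 10 and 5 small rises named in the text below 0.

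At 2% oxygen the knockout had lower RNA of the eEF1 and eEF2 genes, while initiation genes went both ways. All 5 tested eEF1 and eEF2 genes fell, of which Eef1d and Eef1g were not called with library-size scaling (adjusted p = 0.165 and 0.0528), the exceptions among the 38 calls of this comparison. Both eIF5A genes rose. Of 43 initiation genes 17 rose and 9 fell, and a difference between these groups of genes was not tested. Falls included Eif1, Eif4a2 and 4 subunits of eIF3, while the scaffold gene Eif4g1, the eIF2B subunit gene Eif2b3, Eif1ad, Eif3b and Eif1a rose. In all, 24 of the 64 genes rose (19.4% of all tested genes did) and 14 fell (19.1% of all), 38 of 64 against 38.4% called over all genes. The share over all genes depended on their level: with at least 1 CPM in 8 libraries 5284 of 11889 genes were called, and 23 members rose and 15 fell. Members were not matched to other genes by level. The median over the members was 0.059, against -0.004 over all genes. The changes were small: tested against a minimum fold of 1.2, only Eif4g1, Eif2b3, Eif1ad, Eef1a1 and Eif1 were called (4.46% of all genes were). The elongation genes that fell here and rose at low oxygen in control cells share the 4 control libraries at 2% oxygen, so these are not independent results.

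At 20% oxygen 59 of the 64 genes were not called in the knockout. The binding-protein gene Eif4ebp2 rose and Eif5, Eif4a2, Eif2b2 and Eif2s1 fell, 5 of 64 (1 higher and 4 lower) where 9.76% of all genes were called (4.96% higher and 4.80% lower). Their changes were small, the largest in size being -0.22, and the test with a minimum fold of 1.2 lost all 5 calls (0.704% of all genes were called). The median over the members was -0.025, against -0.005 over all genes.

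**Figure D2:**
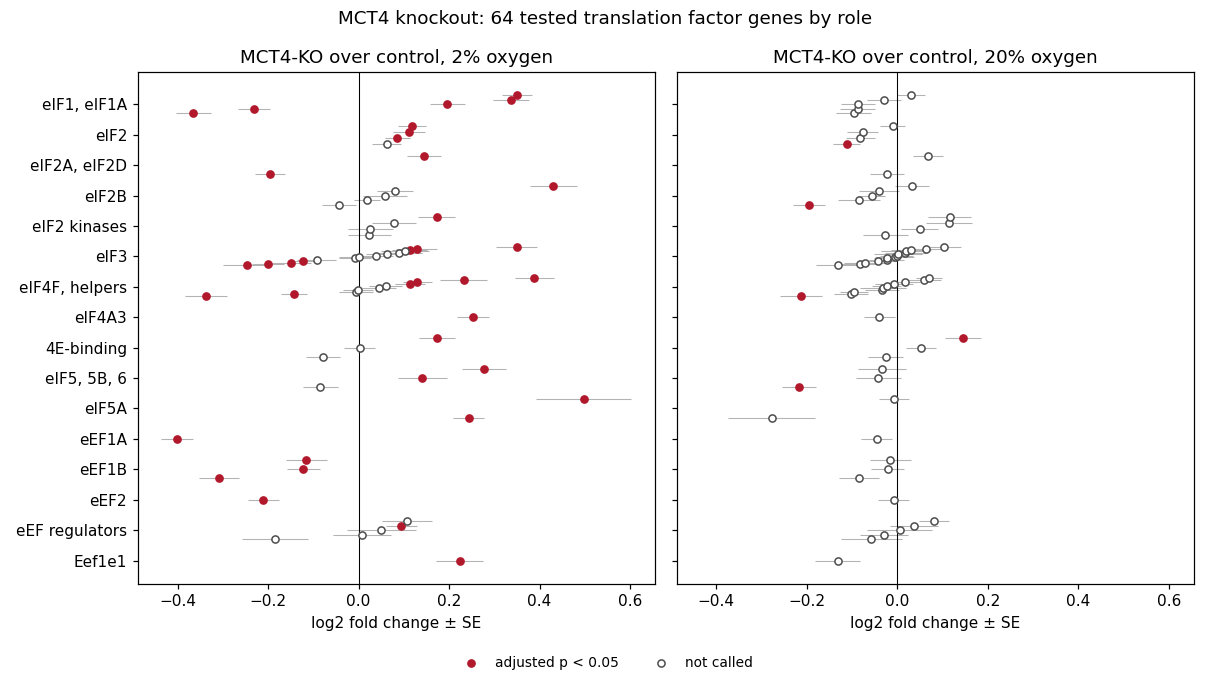
Log2 fold change ± SE (horizontal axis) of MCT4-KO over control cells for the 64 tested genes by role (rows), at 2% (left) and 20% oxygen (right), n = 4 libraries per group. Filled points had an adjusted p under 0.05. At 2% oxygen 24 genes were called higher and 14 lower, with all 5 eEF1 and eEF2 genes on the left of 0. At 20% 1 was called higher and 4 lower.

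The knockout effect differed between the oxygen levels for 28 of the 64 genes by the interaction test (edgeR, the effect at 2% minus that at 20%), against 22.9% of all genes (11.6% more positive and 11.3% more negative). It was more positive at 2% oxygen for 19, led by Eif2b3 (0.52 ± 0.069), Eif1a (0.42 ± 0.054), Eif4g1 (0.40 ± 0.061) and Eef1e1 (0.35 ± 0.072). It was more negative for 9, led by Eef1a1 (-0.36 ± 0.049), Eif1 (-0.28 ± 0.055), Eif3f (-0.27 ± 0.051) and Eif3h (-0.26 ± 0.077). Eif5a2, a rarer eIF5A gene at 3.20 to 6.29 CPM, had the largest value (0.78 ± 0.14) at a low level. Among initiation genes 15 of 43 were more positive and 6 more negative, and among the 5 eEF1 and eEF2 genes 3 were more negative. Eif2s1 was called in opposite directions, 0.12 at 2% and -0.11 at 20%. With at least 1 CPM in 8 libraries the interaction test called 3236 of 11889 genes, and 19 members were more positive and 9 more negative. Here too members were not matched to other genes by level.

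**Figure D3:**
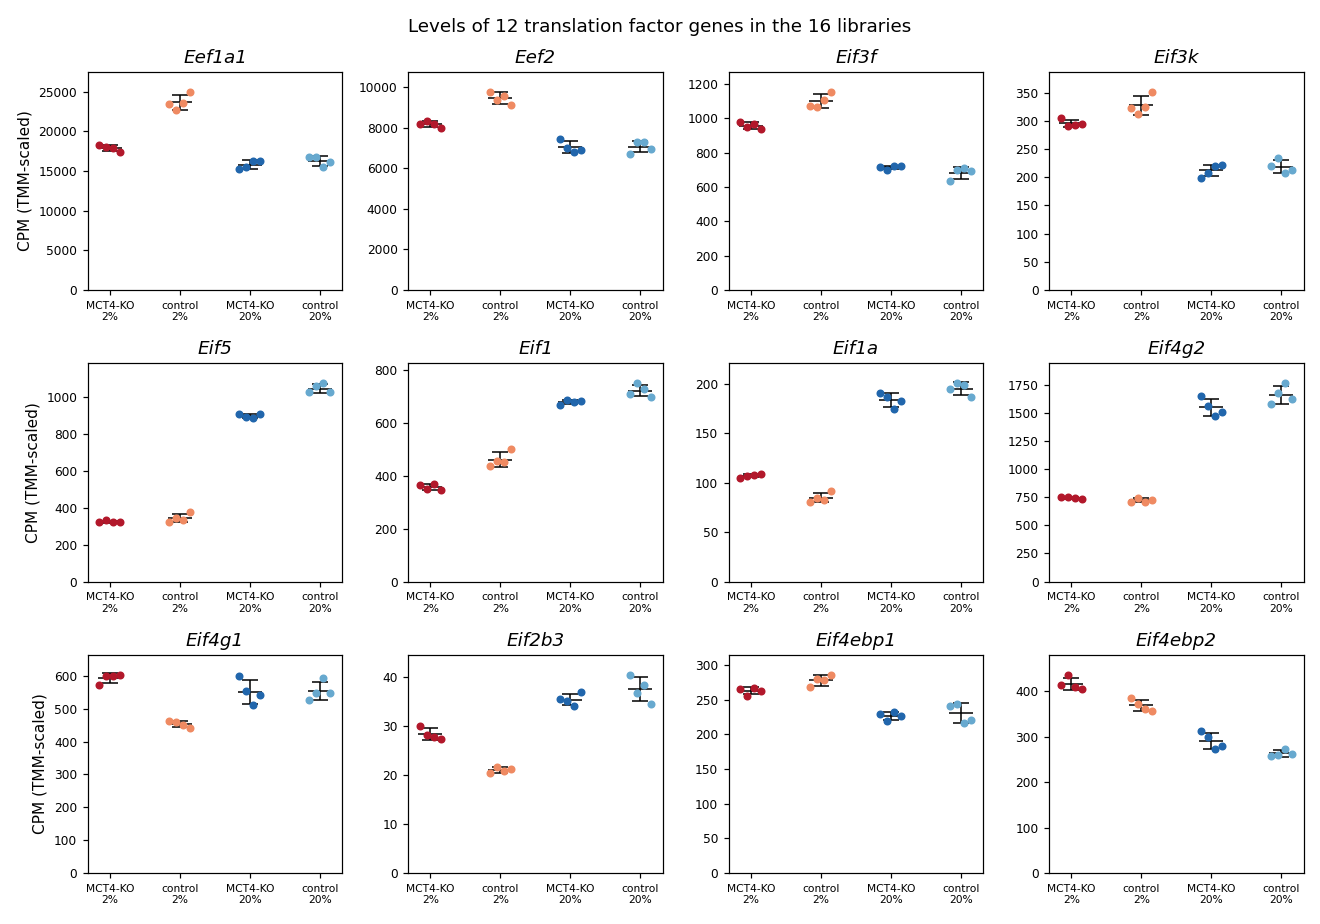
CPM (vertical axis, from 0, TMM-scaled) of 12 genes in each library, for MCT4-KO and control cells at 2% oxygen and MCT4-KO and control cells at 20%. Each point is 1 library, and a bar with caps gives mean ± SD (n = 4). Eef1a1 and Eef2 are highest in control cells at 2% oxygen, Eif5, Eif1, Eif1a and Eif4g2 are lower at 2% than at 20% in both genotypes, and Eif4g1 and Eif2b3 are higher in MCT4-KO than in control cells at 2% with no overlap.

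Among elongation factors, Eef1a1, which encodes the tRNA-delivering eEF1A and is the most abundant member, read 18250, 18060, 17890 and 17450 CPM in MCT4-KO and 23430, 22650, 23530 and 25000 CPM in control cells at 2% oxygen. It read 15200, 15470, 16250 and 16260 CPM in MCT4-KO and 16800, 16830, 15460 and 16110 CPM in control cells at 20%. Every control library at 2% oxygen thus lay above all 12 others, and at 20% the genotypes overlapped. It fell (-0.40 ± 0.035) in the knockout at 2% oxygen (adjusted p = 6.56e-08), and low oxygen raised it by 0.18 ± 0.035 in MCT4-KO and 0.54 ± 0.035 in control cells, of which library-size scaling kept 0.33 in control cells. The translocase gene Eef2 had 8201, 8322, 8204 and 7964 CPM in MCT4-KO and 9772, 9372, 9568 and 9107 CPM in control cells at 2% oxygen, and 7455, 6976, 6800 and 6877 CPM in MCT4-KO and 6717, 7300, 7295 and 6962 CPM in control cells at 20%. It showed the same order, with all control libraries at 2% oxygen above the rest, a change of -0.21 ± 0.035 in the knockout there and rises at low oxygen of 0.22 ± 0.035 in MCT4-KO and 0.42 ± 0.035 in control cells. Its E-box lies 43 bases before the start in the sequence above, and a link to these changes was not tested. Eef1b2, the catalytic subunit of the eEF1B exchange complex, had 881, 865, 850.2 and 843 CPM in MCT4-KO and 1035, 1011, 1047 and 1167 CPM in control cells at 2% oxygen, and 831, 860.5, 862 and 890.0 CPM in MCT4-KO and 968, 953, 869.7 and 861 CPM in control cells at 20%. It fell (-0.31 ± 0.044) in the knockout at 2% oxygen without overlap, and rose at low oxygen in control cells (0.22 ± 0.044) but not in MCT4-KO cells, where the groups overlapped. The other subunit genes of that complex, Eef1d and Eef1g, had smaller changes in the knockout at 2% (-0.12 ± 0.045 and -0.12 ± 0.036), the ones not called by library size (-0.076 and -0.082). With library-size scaling 3 of these 5 genes rose at low oxygen in control cells (Eef1a1, Eef2 and Eef1d), and in MCT4-KO cells Eef1d rose and Eef1b2 fell.

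The factor eIF5A, which carries the modified amino acid hypusine and helps stalled ribosomes, moved the other way in the knockout. Eif5a had 1276, 1244, 1243 and 1222 CPM in MCT4-KO and 1009, 1061, 1051 and 1091 CPM in control cells at 2% oxygen, and 1159, 1114, 1141 and 1153 CPM in MCT4-KO and 1161, 1213, 1134 and 1083 CPM in control cells at 20%. At 2% oxygen every MCT4-KO library was above every control library, a rise of 0.24 ± 0.034 (adjusted p = 1.51e-05), while the genotypes overlapped at 20%. Low oxygen raised it by 0.13 ± 0.034 in MCT4-KO cells, which library-size scaling turned to -0.051, and lowered it (-0.12 ± 0.034) in control cells.

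Genes for enzymes acting on elongation factors fell at low oxygen, 5 of 5 tested in each genotype, where 38.7% of all genes in MCT4-KO and 39.6% in control cells were called lower. Eef2k encodes the kinase that inactivates eEF2. It had 105, 107, 107 and 108 CPM in MCT4-KO and 98.3, 102, 101 and 99 CPM in control cells at 2% oxygen, and 147, 142, 137 and 134 CPM in MCT4-KO and 129, 137, 135 and 128 CPM in control cells at 20%, so every library at 2% was below every library at 20%. The falls were -0.39 ± 0.034 in MCT4-KO and -0.40 ± 0.034 in control cells. In the knockout at 2% oxygen Eef2k differed by 0.094 ± 0.034 (adjusted p = 0.0353), a call lost when any 1 of 6 libraries was left out (controls 1, 3 and 4 and MCT4-KO 2, 3 and 4 at 2%, adjusted p = 0.0506 to 0.0877). Eef1akmt4, a lysine methyltransferase of eEF1A, had 12.6, 11, 12.9 and 10.7 CPM in MCT4-KO and 11.4, 11.4, 11.7 and 12.6 CPM in control cells at 2% oxygen, and 24.9, 25.8, 26.1 and 27.2 CPM in MCT4-KO and 25.1, 27.2, 26.6 and 27.3 CPM in control cells at 20%. The libraries at 2% reached at most 12.9 CPM and those at 20% had at least 24.9 CPM, with changes of -1.13 ± 0.058 in MCT4-KO and -1.17 ± 0.059 in control cells, and its exons overlap those of Alg3 and of a read-through gene. Eef1e1, which despite its name encodes a scaffold of the aminoacyl-tRNA synthetase complex, had 60.2, 57.5, 58.6 and 56.9 CPM in MCT4-KO and 47.4, 49.5, 48.6 and 54.2 CPM in control cells at 2% oxygen, and 72.8, 70.2, 73.5 and 72.4 CPM in MCT4-KO and 87.2, 81, 71.2 and 77 CPM in control cells at 20%. It fell at low oxygen (-0.31 ± 0.051 in MCT4-KO and -0.66 ± 0.051 in control cells) and rose by 0.22 ± 0.052 in the knockout at 2%.

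Among factors that read the start codon, Eif5 had the largest change with oxygen of the 64 genes in either genotype. Its protein triggers GTP hydrolysis by eIF2 at the start codon. Eif5 had 324, 333, 321 and 322 CPM in MCT4-KO and 322, 344, 335 and 378 CPM in control cells at 2% oxygen. At 20% it had 909.7, 893, 888 and 906 CPM in MCT4-KO and 1025, 1058, 1075 and 1025 CPM in control cells. All libraries at 2% oxygen lay well below all libraries at 20%, changes of -1.47 ± 0.039 in MCT4-KO (adjusted p = 6.33e-18) and -1.60 ± 0.039 in control cells (adjusted p = 1.33e-18). At 20% oxygen the knockout libraries were also all below the control libraries, a change of -0.22 ± 0.038 (adjusted p = 0.000829). Eif1, which guards the accuracy of start-codon choice, had 364, 351, 369 and 345 CPM in MCT4-KO and 434, 454, 451 and 502 CPM in control cells at 2% oxygen, and 667, 686, 677 and 683 CPM in MCT4-KO and 708, 749, 729 and 698 CPM in control cells at 20%. The 4 groups did not overlap: low oxygen lowered it (-0.93 ± 0.039 in MCT4-KO and -0.65 ± 0.039 in control cells), and the knockout lowered it (-0.37 ± 0.039) at 2%, while the difference of -0.088 ± 0.039 at 20% did not pass the test (adjusted p = 0.171). Both genes hold ACGTG close to the start, but each of the promoters shown holds a marked match. A link between the motif and these changes was not tested.

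The eIF1A genes, which encode near-identical partners of eIF1, parted from each other. Eif1a had 105, 106, 108 and 108 CPM in MCT4-KO and 80.9, 84, 82.2 and 91.3 CPM in control cells at 2% oxygen, and 190.4, 186, 174 and 183 CPM in MCT4-KO and 195, 200.4, 198 and 186 CPM in control cells at 20%. It fell at low oxygen (-0.78 ± 0.038 in MCT4-KO and -1.21 ± 0.039 in control cells), and at 2% every MCT4-KO library was above every control library (0.34 ± 0.04). The X-linked Eif1ax rose at low oxygen in MCT4-KO cells (0.25 ± 0.039) with 0.073 under library-size scaling, was not called in control cells (-0.042 ± 0.039), and rose in the knockout at 2% (0.20 ± 0.039). Eif1ad, which encodes an eIF1A-domain protein of small-subunit maturation, had 62.5, 61.6, 63.6 and 64.5 CPM in MCT4-KO and 48.5, 49.8, 50.2 and 49.4 CPM in control cells at 2% oxygen, and 86.7, 87.5, 89 and 87.3 CPM in MCT4-KO and 85.5, 90.2, 84.1 and 83.3 CPM in control cells at 20%. It fell at low oxygen in MCT4-KO (-0.48 ± 0.032) and control cells (-0.79 ± 0.033) and rose in the knockout at 2% (0.35 ± 0.033), with no overlap in these 3 comparisons. Eif1b, a paralog of Eif1, went against it at low oxygen, with 0.21 ± 0.037 in MCT4-KO (not called with library-size scaling) and 0.41 ± 0.036 in control cells. The subunit-joining gene Eif5b had 171, 178, 181 and 180.0 CPM in MCT4-KO and 148, 147, 144 and 147 CPM in control cells at 2% oxygen, and 129, 141, 119 and 129.9 CPM in MCT4-KO and 124, 132, 149 and 129 CPM in control cells at 20%. It rose at low oxygen in MCT4-KO cells (0.45 ± 0.049) and in the knockout at 2% (0.28 ± 0.049). In control cells the groups at the 2 oxygen levels overlapped, and the rise of 0.13 ± 0.049 was lost without control replicate 1 or 4 at 20% (adjusted p = 0.083 and 0.0563) and was -0.073 with library-size scaling.

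The genes of eIF2, its exchange factor and its kinases moved apart at low oxygen. Eif2s1 encodes the alpha subunit that the kinases phosphorylate. It had 214, 203, 209 and 203 CPM in MCT4-KO and 185, 196, 189.5 and 193 CPM in control cells at 2% oxygen, and 232, 232, 223 and 235 CPM in MCT4-KO and 252, 254, 252 and 239.7 CPM in control cells at 20%. The libraries at 2% oxygen were all below those at 20% (-0.15 ± 0.031 in MCT4-KO and -0.38 ± 0.031 in control cells), and the knockout libraries were above the control libraries at 2% (0.12 ± 0.031) and below them at 20% (-0.11 ± 0.031, adjusted p = 0.0246). The call at 20% was lost when any 1 of 5 libraries was left out (controls 1, 2 and 3 and MCT4-KO 2 and 3, adjusted p = 0.0581 to 0.0939) and with the replicate block (adjusted p = 0.0542). The beta subunit gene Eif2s2 fell more at low oxygen (-0.39 ± 0.032 in MCT4-KO and -0.53 ± 0.032 in control cells), whereas the gamma subunit gene Eif2s3x rose by 0.21 ± 0.027 and 0.11 ± 0.027. With library-size scaling the first of these rises was not called and the second was -0.092. A further gamma subunit gene, the Y-linked Eif2s3y, averaged 89.4 CPM in MCT4-KO and 82.7 CPM in control cells at 2% oxygen. At 20% it averaged 77.4 and 81.7 CPM. On the TMM scale it rose at low oxygen in MCT4-KO and was not called in control cells. By library size it was not called in MCT4-KO and was called lower in control cells. Eif2a and Eif2d encode initiation factors that act apart from eIF2. Eif2a rose at low oxygen by 0.22 ± 0.033 in MCT4-KO (not called with library-size scaling) and 0.48 ± 0.033 in control cells and fell (-0.20 ± 0.033) in the knockout at 2%. Eif2d went the other way there, with a rise of 0.14. At low oxygen it rose by 0.16 in MCT4-KO cells, which library-size scaling turned negative, and was not called in control cells (-0.004).

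Of the 5 subunits of eIF2B, which reloads eIF2 with GTP, 4 fell at low oxygen in each genotype, and Eif2b5, the catalytic subunit, rose in MCT4-KO cells only on the TMM scale (0.13 ± 0.029, against -0.048 by library size). Over all genes 38.7% fell at low oxygen in MCT4-KO and 39.6% in control cells. Eif2b3 had 30.1, 28.3, 27.9 and 27.3 CPM in MCT4-KO and 20.4, 21.7, 20.8 and 21.3 CPM in control cells at 2% oxygen, and 35.6, 35, 34.1 and 36.9 CPM in MCT4-KO and 40.5, 36.8, 38.4 and 34.6 CPM in control cells at 20%. At 2% oxygen the knockout libraries all lay above the control libraries, a rise of 0.43 ± 0.051 (adjusted p = 2.47e-06), while at 20% the genotypes overlapped. Its fall at low oxygen was -0.32 ± 0.048 in MCT4-KO and -0.83 ± 0.05 in control cells. Eif2b2 had 115, 116, 115 and 113 CPM in MCT4-KO and 118, 112, 118 and 125 CPM in control cells at 2% oxygen, and 188, 176, 179 and 186 CPM in MCT4-KO and 202, 220.4, 208 and 204 CPM in control cells at 20%. It fell at low oxygen (-0.67 ± 0.036 in MCT4-KO and -0.82 ± 0.036 in control cells), and in the knockout at 20% oxygen (-0.19 ± 0.035) without overlap, while at 2% the genotypes overlapped.

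Of the 4 eIF2 kinase genes, 3 rose modestly at low oxygen in both genotypes on the TMM scale, of which Eif2ak4 turned negative by library size. Over all genes 37.7% rose at low oxygen in MCT4-KO and 38.7% in control cells. Eif2ak2 encodes PKR, the sensor of double-stranded RNA. It had 46.4, 46.9, 49 and 49.2 CPM in MCT4-KO and 46.6, 48, 44.8 and 42 CPM in control cells at 2% oxygen, and 40.1, 40.7, 36.8 and 35.2 CPM in MCT4-KO and 35.5, 35.5, 36.5 and 33.6 CPM in control cells at 20%, rises of 0.33 ± 0.049 in MCT4-KO and 0.36 ± 0.05 in control cells that stayed called with library-size scaling. Eif2ak3 encodes PERK, the kinase of endoplasmic reticulum stress. It had 36.5, 37.4, 34.4 and 37.3 CPM in MCT4-KO and 35.1, 35.5, 36.3 and 36.3 CPM in control cells at 2% oxygen, and 33.4, 31.8, 29.8 and 29.1 CPM in MCT4-KO and 30.4, 27, 27.8 and 29.3 CPM in control cells at 20%, with rises of 0.23 ± 0.048 in MCT4-KO and 0.32 ± 0.048 in control cells and 0.052 and 0.12 with library-size scaling. For both genes the oxygen levels did not overlap in either genotype, and the genotypes overlapped at each level. Eif2ak4 encodes GCN2, which senses uncharged tRNA. It had 41.1, 47.5, 45.2 and 45.9 CPM in MCT4-KO and 47.3, 43, 44.6 and 41.5 CPM in control cells at 2% oxygen, and 41, 38.8, 39.9 and 40.4 CPM in MCT4-KO and 40.1, 38, 43.7 and 41.3 CPM in control cells at 20%. Its rises of 0.17 ± 0.05 in MCT4-KO and 0.12 ± 0.05 in control cells turned to -0.01 and -0.089 with library-size scaling, and in control cells the call was lost without any 1 of control replicates 1, 2 and 4 at 20% and 1 and 3 at 2% (adjusted p = 0.0543 to 0.16). Eif2ak1, which encodes the heme-regulated kinase HRI, had 54.2, 56.7, 54.6 and 56.3 CPM in MCT4-KO and 49.9, 49.1, 50.5 and 47.2 CPM in control cells at 2% oxygen, and 52.7, 49.4, 55.8 and 52.9 CPM in MCT4-KO and 47.8, 52.6, 52.8 and 50.5 CPM in control cells at 20%. On the TMM scale it was not called with oxygen in MCT4-KO (0.073 ± 0.041) or control cells (-0.05 ± 0.042), whereas by library size it was called lower in both (-0.10, adjusted p = 0.0262, and -0.25, adjusted p = 1.42e-05). It alone among the kinases was called in the knockout at 2%, a rise of 0.17 ± 0.042 without overlap. Differences between the kinases were not tested.

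Genes around eIF2 phosphorylation that are not translation factors, whose proteins act on the kinases or the phosphatase of eIF2 or downstream of it, were mostly lower at low oxygen. Of 9 tested, 8 fell in MCT4-KO and 8 in control cells, where 38.7 and 39.6% of all genes fell. Ppp1r15a, which encodes the GADD34 subunit of the phosphatase of eIF2, changed by -1.93 ± 0.052 in MCT4-KO and -2.26 ± 0.053 in control cells. The pseudokinase gene Trib3 changed by -2.71 ± 0.085 and -3.10 ± 0.087, the transcription factor gene Ddit3 by -1.84 ± 0.062 and -2.28 ± 0.065, and Atf4, which encodes the main effector, by -1.28 ± 0.051 and -1.46 ± 0.051. In the knockout at 2% oxygen, where 19.4% of all genes rose, 3 of the 9 did: Ddit3 (0.39 ± 0.073), Ppp1r15b (0.17 ± 0.033) and Gcn1l1 (0.22 ± 0.051), which encodes the activator of GCN2. At 20% oxygen Dnajc3 rose (0.11 ± 0.029) and Ppp1r15a fell (-0.21 ± 0.044).

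The 14 genes of eIF3, the scaffold of the small subunit, split by oxygen: 10 rose and 4 fell in MCT4-KO, and 8 rose and 5 fell in control cells (6 and 4, and 6 and 6, with library-size scaling). Genes of the whole cell likewise went both ways: 37.7% rose and 38.7% fell in MCT4-KO, and 38.7% rose and 39.6% fell in control cells. With library-size scaling these shares were 27.6 and 50.4%, and 28.1 and 51.7%. In both genotypes Eif3e, Eif3f, Eif3h, Eif3i, Eif3k and Eif3l rose under either scaling, and Eif3a, Eif3g, Eif3j1 and Eif3j2 fell. Eif3f had 982, 948, 967 and 936 CPM in MCT4-KO and 1073, 1069, 1108 and 1156 CPM in control cells at 2% oxygen, and 716, 699, 722 and 722 CPM in MCT4-KO and 634, 701, 708 and 691 CPM in control cells at 20%. The groups at 2% lay above those at 20%, rises of 0.42 ± 0.036 in MCT4-KO and 0.69 ± 0.036 in control cells (adjusted p = 3.26e-13), and at 2% the knockout libraries were below the controls (-0.20 ± 0.036). Eif3h had 590.0, 579, 568 and 561 CPM in MCT4-KO and 694, 656, 684 and 692 CPM in control cells at 2% oxygen, and 411, 448, 502 and 495 CPM in MCT4-KO and 484, 475, 410.5 and 464 CPM in control cells at 20%. It likewise rose at low oxygen (0.31 ± 0.054 in MCT4-KO and 0.57 ± 0.054 in control cells) and fell in the knockout at 2% (-0.25 ± 0.054). Eif3k, at the edge of the complex, had 305, 292, 292 and 294 CPM in MCT4-KO and 323, 312, 324 and 352 CPM in control cells at 2% oxygen, and 199, 208, 220.2 and 221 CPM in MCT4-KO and 221, 234, 208 and 212 CPM in control cells at 20%. It rose by 0.48 ± 0.043 in MCT4-KO and 0.58 ± 0.043 in control cells and fell (-0.15 ± 0.043) in the knockout at 2%, where no library overlapped.

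Eif3a, Eif3g and Eif3b behaved otherwise than Eif3f, Eif3h and Eif3k. Eif3c rose at low oxygen in both genotypes on the TMM scale, but turned negative in control cells by library size. Eif3a, the largest subunit, fell at low oxygen (-0.69 ± 0.053 in MCT4-KO and -0.79 ± 0.054 in control cells), as did Eif3g (-0.40 ± 0.044 in MCT4-KO and -0.48 ± 0.044 in control cells). Eif3b, its core partner, had 462, 454, 448 and 450.1 CPM in MCT4-KO and 333, 368, 353 and 370.2 CPM in control cells at 2% oxygen, and 428, 394, 382 and 392 CPM in MCT4-KO and 361, 393, 423 and 387 CPM in control cells at 20%. At 2% oxygen all knockout libraries were above all controls (0.35 ± 0.045), and low oxygen raised Eif3b in MCT4-KO (0.18 ± 0.045, 0.0068 by library size) and lowered it in control cells (-0.13 ± 0.045), the fall being lost without control replicate 3 at 20% or 1 at 2% (adjusted p = 0.0543 and 0.0517). In the knockout at 2%, 3 of the 14 rose (Eif3b, Eif3c and Eif3d) and 4 fell (Eif3e, Eif3f, Eif3h and Eif3k), where 19.4% of all genes rose and 19.1% fell. At 20% the 14 adjusted p-values ran from 0.0936 to 0.989.

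**Figure D4:**
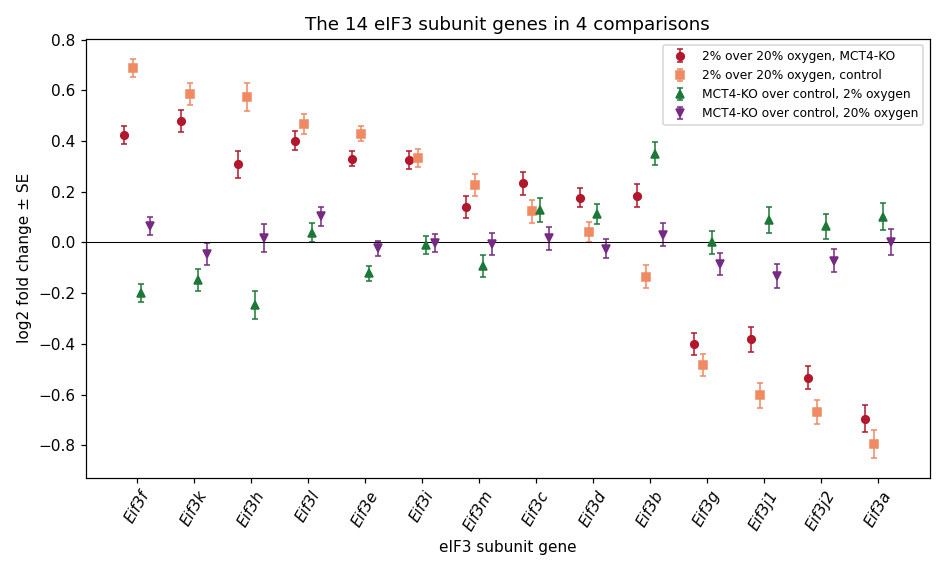
Log2 fold change ± SE (vertical axis) of the 14 eIF3 subunit genes (horizontal axis, ordered by the change in control cells) at 2% over 20% oxygen in MCT4-KO and control cells and for MCT4-KO over control at 2% and 20% oxygen, n = 4 libraries per group. Of the 14, the 6 that rose at low oxygen in both genotypes under either scaling lie above 0, and 4 lie below it. Eif3b has the highest knockout value at 2% oxygen (0.35).

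In the cap-binding complex the scaffold genes Eif4g1 and Eif4g3 and both helicase genes were called in the knockout at 2% oxygen, and Eif4e was not. Its relative Eif4e2 ran from 73.51 to 79.55 CPM in MCT4-KO and from 68.56 to 71.76 CPM in control cells at 2%. For Eif4e3 the genotypes overlapped there. Eif4e had 201, 198, 199 and 197 CPM in MCT4-KO and 197, 199, 193 and 208 CPM in control cells at 2% oxygen, and 209, 198, 192 and 197 CPM in MCT4-KO and 207, 207, 202 and 194 CPM in control cells at 20%. All 4 groups overlapped and none of the 5 tests called it on the TMM scale (largest size -0.026 ± 0.033, at low oxygen in control cells). With library-size scaling it was called lower at low oxygen in MCT4-KO (-0.18, adjusted p = 1.88e-05) and control cells (-0.23, adjusted p = 7.27e-07). Eif4g1 had 572, 601, 598 and 604 CPM in MCT4-KO and 462, 461, 449 and 442 CPM in control cells at 2% oxygen, and 599, 554, 510.0 and 541 CPM in MCT4-KO and 528, 547, 594 and 547 CPM in control cells at 20%. At 2% oxygen the knockout libraries all exceeded the controls, a rise of 0.39 ± 0.043 (adjusted p = 1.10e-06), and at 20% they overlapped. Low oxygen lowered Eif4g1 in control cells (-0.29 ± 0.043), and the rise of 0.11 ± 0.043 in MCT4-KO cells was -0.07 by library size and was lost without any 1 of MCT4-KO replicates 3 and 4 at 20% and 2, 3 and 4 at 2% (adjusted p = 0.0576 to 0.139). Eif4g2, a scaffold relative that does not bind eIF4E, had 755, 754, 744 and 731 CPM in MCT4-KO and 712, 747, 709.7 and 724 CPM in control cells at 2% oxygen. At 20% it had 1654, 1567, 1472 and 1512 CPM in MCT4-KO and 1582, 1681, 1767 and 1628 CPM in control cells. The libraries at 2% reached at most 755 CPM and those at 20% had at least 1472 CPM, changes of -1.06 ± 0.038 in MCT4-KO (adjusted p = 1.05e-15) and -1.20 ± 0.038 in control cells, and the genotypes overlapped at both levels. Eif4g3 fell at low oxygen (-0.11 ± 0.051 in MCT4-KO and -0.38 ± 0.051 in control cells) and rose by 0.23 ± 0.051 in the knockout at 2%.

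The paralogous helicase genes Eif4a1 and Eif4a2 went opposite ways in the knockout at 2% oxygen. Eif4a1 had 1072, 1051, 1083 and 1100 CPM in MCT4-KO and 963, 1004, 974 and 994 CPM in control cells at 2% oxygen, and 1019, 992, 993 and 1031 CPM in MCT4-KO and 1104, 1105, 1087 and 1016 CPM in control cells at 20%. It rose by 0.13 ± 0.031 there (adjusted p = 0.00244) without overlap, whereas at 20% it differed by -0.10 ± 0.031 (adjusted p = 0.0574), which was called by DESeq2's Wald test (adjusted p = 0.0189), by limma-voom (adjusted p = 0.0487) and without control replicate 4 (adjusted p = 0.012). Low oxygen raised it in MCT4-KO (0.094 ± 0.031, -0.084 by library size) and lowered it in control cells (-0.13 ± 0.031). Eif4a2 had 104, 104, 102 and 104 CPM in MCT4-KO and 125, 128, 129.7 and 142 CPM in control cells at 2% oxygen, and 103, 100, 107 and 107 CPM in MCT4-KO and 116, 117, 135 and 116 CPM in control cells at 20%. It fell in the knockout at 2% (-0.34 ± 0.047, adjusted p = 1.43e-05) and at 20% oxygen (-0.21 ± 0.047, adjusted p = 0.00587), with no overlap at either level. The oxygen levels overlapped in both genotypes, and the rise of 0.12 ± 0.047 in control cells was lost without control replicate 1, 2 or 4 at 20% or 4 at 2% (adjusted p = 0.0674 to 0.116) and was -0.085 by library size. The helicase cofactor gene Eif4b fell (-0.14 ± 0.028) in the knockout at 2% and rose by 0.27 ± 0.028 at low oxygen in control cells. Eif4a3, a relative that works in the exon junction complex, rose by 0.25 ± 0.035 in the knockout at 2% and fell (-0.35 ± 0.035) at low oxygen in control cells.

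Both 4E-binding protein genes with usable counts were higher at low oxygen, and 1 of them was higher in the knockout. Eif4ebp2 had 413, 436, 410.2 and 404 CPM in MCT4-KO and 385, 372, 362 and 357 CPM in control cells at 2% oxygen. At 20% it had 312, 298, 274 and 280.1 CPM in MCT4-KO and 257, 260.5, 273 and 263 CPM in control cells, so the 4 groups did not overlap. Low oxygen raised it by 0.52 ± 0.04 in MCT4-KO (adjusted p = 2.75e-10) and 0.49 ± 0.04 in control cells, and 0.34 and 0.28 with library-size scaling. The knockout raised it by 0.17 ± 0.04 at 2% (adjusted p = 0.00189) and 0.14 ± 0.04 at 20% (adjusted p = 0.0266), and leaving out any 1 of replicates 1 and 2 of either genotype ended the call at 20% (adjusted p = 0.0619 to 0.0886) and in a fit of those 2 groups alone (adjusted p = 0.0543). Eif4ebp1, the main mTORC1-controlled repressor, had 266, 256, 267 and 263 CPM in MCT4-KO and 267, 279, 278 and 286 CPM in control cells at 2% oxygen, and 229, 219, 232 and 227 CPM in MCT4-KO and 241, 244, 217 and 220.2 CPM in control cells at 20%. Low oxygen raised it by 0.21 ± 0.038 in MCT4-KO and 0.27 ± 0.038 in control cells, which shrank to 0.035 and 0.062 with library-size scaling and were then not called. At 2% its knockout libraries were all below the controls, but the difference of -0.079 ± 0.038 did not pass the test (adjusted p = 0.109). Eif4enif1, which encodes a 4E-binding transporter tied to mRNA decay, fell at low oxygen (-0.32 ± 0.034 in MCT4-KO and -0.27 ± 0.034 in control cells).

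Most partners of these factors that carry other names were lower at low oxygen, with a median change of -0.34 in MCT4-KO and -0.44 in control cells for partners of initiation. Of the 16 of these tested, 4 rose and 12 fell at low oxygen in MCT4-KO and 4 rose and 11 fell in control cells. Over all genes 37.7% rose and 38.7% fell in MCT4-KO, and 38.7% rose and 39.6% fell in control cells. Mknk1, which encodes a kinase of eIF4E, fell most (-2.09 ± 0.044 in MCT4-KO and -2.27 ± 0.045 in control cells). Denr, part of a re-initiation factor, also fell (-0.69 ± 0.045 and -0.92 ± 0.045), while Pdcd4, which encodes an inhibitor of eIF4A, rose (0.40 ± 0.03 and 0.59 ± 0.03). In the knockout at 2% oxygen 6 of the 16 rose and 6 fell, where 19.4% of all genes rose and 19.1% fell. The smallest adjusted p was for Pabpc4, a poly(A)-binding protein (-0.31 ± 0.031), Ncbp1, the nuclear cap-binding protein (0.35 ± 0.038), and the ribosome-recycling gene Abce1 (0.38 ± 0.048). For 15 genes of elongation, termination and factor modification the medians were -0.43 in MCT4-KO and -0.64 in control cells. Of these, 1 rose and 9 fell at low oxygen in MCT4-KO, and 1 rose and 12 fell in control cells. Gtpbp2, a ribosome rescue factor, changed by -1.41 ± 0.032 in MCT4-KO and -1.55 ± 0.032 in control cells. In the knockout at 2% oxygen 6 of these 15 rose (19.4% of all genes did), among them the release factor genes Gspt1 (0.32 ± 0.033) and Etf1 (0.17 ± 0.03) and the rescue factor gene Pelo (0.31 ± 0.048). At 20% oxygen the knockout lowered 2 of the 16 partners of initiation and 1 of the 15, where 4.80% of all genes were called lower.

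Likeness over the 16 libraries, given as Pearson's r of log2 CPM between members and without a test since libraries of a group share their condition, paired Eif5 with Eif4g2 (0.994) and Eif1a with Eif1ad (0.981). Eef2 was most like Eif2a (0.971), Eef1a1 most like Eif1b (0.945) and Eif4ebp2 most like Eif2ak2 (0.959). Eif4g1 was most like Eif3b (0.863) and least like Eef1b2 (-0.893). Eif4e had no close partner, its highest value being 0.446 with Eif5a2.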

How the data were processed

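RNA was measured by sequencing of poly(A)-selected libraries. The authors deposited expected counts (estimated read counts per gene) for 53801 Ensembl genes in 16 columns, all of which were used. The submitters' processing notes name HISAT2, RSEM and mm10. Their versions, the annotation and the strand setting were not given in the sources used here. Expected counts were rounded. GENCODE vM21 (GRCm38) gave names, biotypes and exon lengths for 53706 identifiers. Unmatched identifiers (95) carried 0.0103% of counts. With 21192179 to 28871459 counts per library, a 0 allows 3 counts, and this limit covers counting error only.

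Filtering by filterByExpr (edgeR 4.0.16, R 4.3.3) kept 13774 genes with 99.94% of the counts. After TMM scaling, 1 model with group means covered the 16 libraries, with 12 residual degrees of freedom and a common coefficient of variation of 4.61%, and 5 comparisons were tested by edgeR's quasi-likelihood F-test with Benjamini-Hochberg adjustment over all tested genes, called under 0.05. SE is the log2 fold change divided by the root of F.

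Members, role groups and pathway lists were chosen with earlier results of these data known, so group counts are descriptions. Values of every library are given for 16 genes chosen by role whatever their result, and for the 4 largest called rises and falls per comparison whose mean log2 CPM reached 3. Alternatives were DESeq2 1.42.0 size factors and its Wald test, library-size scaling, no count filter, at least 1 CPM in 8 libraries, limma-voom (limma 3.58.1), a minimum fold of 1.2, the compared groups only, a replicate block and leaving out each library. Promoters came from RefSeq (GRCm38.p6). Some markers of other cell types were looked up but are not reported here.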

Additional observations from a re-analysis of the deposited data

Results flagged for a closer look

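In 120 groups of 4 libraries (31 genes with values printed per library, less Eif4ebp3), 3 libraries stood far from the other 3 of their group by Dixon's ratio at its 95% critical value, which chance passes in about 1 in 20 groups. Eif4a2 had 134.6 CPM in replicate 3 of the controls at 20% oxygen, against 115.7 to 116.9 CPM in the others, and 102.2 CPM in replicate 3 of MCT4-KO cells at 2%, against 104.2 to 104.4 CPM. Eif4g1 had 571.6 CPM in replicate 1 of MCT4-KO cells at 2%, against 598.4 to 603.7 CPM. Without that control replicate the Eif4a2 interaction was called (adjusted p = 0.0247).

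The knockout effect differed between oxygen levels by the interaction test for 28 genes (edgeR, log2, the effect at 2% minus the effect at 20%). It was more positive at 2% for Eif5a2 (0.775), Eif2b3 (0.515), Eif1a (0.424), Eif4g1 (0.395), Eef1e1 (0.355), Eif5b (0.320), Eif3b (0.319), Eif1ad (0.318), Eif4a3 (0.292), Eif1ax (0.292), Eif4g3 (0.264), Eif5a (0.250), Eif2s1 (0.230), Eif4a1 (0.225), Eif3j1 (0.221), Eif2s3y (0.188), Eif2d (0.167), Eif2b2 (0.151) and Eif2s2 (0.144). It was more negative for Eef1a1 (-0.356), Eif1 (-0.278), Eif3f (-0.265), Eif3h (-0.264), Eif2a (-0.263), Eef1b2 (-0.224), Eif4b (-0.213), Eef2 (-0.202) and Eif1b (-0.201). The call of Eif2b2 was lost without any 1 of 11 of the 16 libraries (adjusted p = 0.0511 to 0.0857) and with the replicate block (0.0677).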

How the results depend on the processing

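The counts of called members depended most on a minimum fold and on scaling. With a minimum fold of 1.2 the members called higher and lower were 3 and 2 in the knockout at 2% oxygen (24 and 14 without it), 0 and 0 at 20% (1 and 4), 8 and 15 at low oxygen in MCT4-KO (31 and 25), 13 and 21 in control cells (24 and 32), and 3 and 0 for the interaction (19 and 9). Over all 13774 genes that test called 614, 97, 7103, 7676 and 289. With library-size scaling 10 were higher at low oxygen in MCT4-KO and 15 in control cells, and of the calls over all genes 35.4 and 35.2% were higher. Among the 30 tested genes with values per library, those that changed sign under it were, in MCT4-KO cells, Eif2ak1 (-0.105), Eif2ak4 (-0.010), Eif4a1 (-0.084), Eif4g1 (-0.070) and Eif5a (-0.051), and in control cells Eif2ak4 (-0.089), Eif4a2 (-0.085) and Eif5b (-0.073). For the knockout at 20%, DESeq2's Wald test called 2 higher and a fit of the compared groups only called 0. Leaving out 1 library gave 20 to 23 higher and 13 to 15 lower in the knockout at 2%, 0 to 1 and 3 to 7 at 20% (7 without control replicate 4), 30 to 32 and 22 to 24 at low oxygen in MCT4-KO, 20 to 24 and 31 to 32 in control cells, and 15 to 22 and 9 to 10 for the interaction. Same-numbered libraries did not deviate together (24 pairs, r from -0.0637 to 0.115, 1 above 0.1), so the replicate numbers were not taken as pairs. With a replicate block 37 of 38 calls in the knockout at 2%, 4 of 5 at 20%, 55 of 56 at low oxygen in each genotype and 26 of 28 for the interaction were kept in direction.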
